A study of Mus musculus with 6 samples.

Results

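The genes described here are the protein-coding members of cytochrome P450 families 1, 2 and 3 in mouse liver, taken as every protein-coding gene whose symbol is Cyp followed by the family digit 1, 2 or 3 and a letter. There were 61 such genes among the 45706 genes of the table, in 17 subfamilies. The study, whose title and design text concern NTPDase8 and liver ischemia, compared livers of wild type mice (3 libraries, WT 1 to WT 3) with livers of mice labelled as knockouts of Entpd8 (3 libraries, KO 1 to KO 3), the gene for the ectonucleotidase NTPDase8. RNA was enriched for poly(A) tails before sequencing. Both groups carry only the genotype and tissue labels: no label gives sex, age, strain or surgery, so none of the differences below can be tied to ischemia from the labels. Nothing in the labels says whether each library is its own animal, and p-values then measure only the spread between these samples, which may be technical.

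The total was between 32768764 and 46473522 expected counts per library, and all values are given as CPM, counts scaled to the library total with TMM factors. Entpd8 itself had 39.01, 22.5 and 56.5 CPM in wild type and 0.382, 0.723 and 1.09 CPM in the knockout libraries. Ddx3y, a Y-linked gene, was present in all 6 libraries at 80.0 to 99.6 CPM, and Xist had at most 6 counts in any. Summed hepatocyte markers ranged from 48670 to 65550 CPM in wild type and from 55090 to 73840 CPM in knockout (6 of 6 markers detected). Other markers moved with genotype: 3 erythrocyte markers summed to 268 to 378 CPM against 829 to 1104 CPM in knockout, 5 cholangiocyte markers to 80.4 to 109 against 122 to 312 CPM, 5 Kupffer cell markers to 70.2 to 173 against 33.7 to 43.6 CPM, 4 B and plasma cell markers to 0.717 to 1.96 against 15.8 to 22.7 CPM, 4 T and NK cell markers to 0.4998 to 0.615 against 1.53 to 2.42 CPM, and 3 intestine markers to 11.3 to 23.5 against 40.1 to 45.8 CPM. The rise of the B and plasma cell sum came mainly from Jchain and Igkc. Ms4a1 had 7, 3 and 6 counts in wild type and 5, 4 and 4 in knockout, and Cd79a had at most 23 counts in any library. Most of the intestine sum was Fabp2, at 11.3 to 23.4 CPM in wild type and 39.7 to 45.4 CPM in knockout. Mitochondrially encoded genes took 6.52% to 8.34% of counts in wild type and 10.1% to 11.7% in knockout. The part of these shifts in the results on P450 genes was not tested, and in bulk liver fewer cells of a type and less RNA per cell cannot be told apart.

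Cytochrome P450 enzymes are heme proteins of the endoplasmic reticulum that insert an oxygen atom into their substrates with electrons passed on by P450 oxidoreductase and cytochrome b5. Families 1 to 3 carry out most of the liver's oxidation of drugs, toxins and steroids, while the other families mainly serve the synthesis and breakdown of bile acids, sterols, fatty acids and retinoids. In liver, family 1 is known as the target of the aryl hydrocarbon receptor, the Cyp2b and Cyp3a genes as targets of the nuclear receptors CAR and PXR, and several Cyp2a, Cyp2b, Cyp2c and Cyp2d genes of mice as sex-biased under the pattern of growth hormone.

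Features of sequence bear on the measurements, what the families share and how far close relatives can be told apart. In the longest coding region of 58 of the 61 genes, a 30-base stretch encodes the loop whose cysteine holds the heme iron. It is shown for the genes of highest interest below, in the coding strand of GRCm38 gene models, with the cysteine codon in capitals.
Cyp1a2: ttcggcttgggaaagcgccggTGCattggg
Cyp2a5: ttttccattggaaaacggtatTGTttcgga
Cyp2c37: ttctcaacagggaaacggataTGTgcagga
Cyp2e1: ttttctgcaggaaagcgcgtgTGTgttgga
Cyp3a11: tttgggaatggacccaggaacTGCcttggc

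Similarity was taken over the whole coding region, this loop included. It was 58.9% to 62.1% of aligned coding bases in the 3 pairs of Cyp1a2, Cyp2e1 and Cyp3a11, 1 gene from each family. Within a subfamily it ran up to near identity. Cyp2a4 and Cyp2a5 differed at 23 of 1482 coding bases. The 75-base window where they differed most (coding bases 595 to 669) held 5 differences, printed in capitals.
Cyp2a4: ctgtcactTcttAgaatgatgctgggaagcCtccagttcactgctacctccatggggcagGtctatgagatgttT
Cyp2a5: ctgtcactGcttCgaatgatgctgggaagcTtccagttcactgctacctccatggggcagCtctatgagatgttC

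Cyp2c37, Cyp2c50 and Cyp2c54 differed at 98 of 1470 coding bases, and their most divergent window (coding bases 776 to 850) held 14 positions at which at least 1 of them stood apart, in capitals.
Cyp2c37: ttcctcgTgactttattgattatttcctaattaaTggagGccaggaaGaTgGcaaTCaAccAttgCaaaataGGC
Cyp2c50: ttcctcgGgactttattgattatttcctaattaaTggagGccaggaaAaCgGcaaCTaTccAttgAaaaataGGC
Cyp2c54: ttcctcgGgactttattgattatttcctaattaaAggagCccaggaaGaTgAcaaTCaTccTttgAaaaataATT

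Of the 61 genes, 38 shared at least 1 stretch of 75 bases with another member, and in 17 more than 10% of such stretches were shared. The highest shares were those of Cyp3a41a and Cyp3a41b (95.3% and 90.9%), of Cyp2c40 (45.9%), Cyp2c69 (42.6%), Cyp2c67 (36.0%) and Cyp2c68 (28.5%), and of Cyp2d11 (21.9%), Cyp2d10 (20.997%) and Cyp2a4 (20.97%). Reads from such stretches cannot be assigned to 1 gene, and 28 members had values that were not whole numbers in at least 1 library. Values of these genes are therefore uncertain in how they split between relatives.

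Of the 61 genes, 41 passed the filter on low counts and were tested, 9 were at 0 counts in every library, and 8 others never reached 10 counts. Among the 41, 13 were higher and 2 lower in the knockout livers (edgeR quasi-likelihood test, Benjamini-Hochberg adjusted p under 0.05 over 14069 genes). Over all genes tested, 9.8% were called higher and 10.6% lower, against 31.7% and 4.88% of the P450 genes tested. The 3 knockout values lay above all 3 wild-type values for 19 members and below them for 3, where the background was 18.7% and 22.0% of all genes. The median log2 fold change was 0.54 over the 41 members and -0.02 over all genes, and 35 of the 41 were positive. Under some alternative the sign turned for 5 members with changes near 0 (Cyp2c40, Cyp2c55, Cyp2c69, Cyp2d40 and Cyp2j9), none of them called. Cyp2a4 and Cyp2d12 passed the filter only through their knockout libraries, so their direction was fixed by the filter. Without them, 11 of 39 were called higher and 2 lower. The groups then did not overlap for 17 higher (43.6%) and 3 lower (7.69%), the median log2 fold change was 0.54, and 33 of the 39 were positive. Among the 39, Cyp2a22, Cyp2c39, Cyp2g1 and Cyp2j8 reached the filter minimum in too few wild-type libraries to pass without knockout ones. None of them was called and their groups overlapped. Each had a positive change, so the median and the count of positive changes still lean on the filter. With libraries scaled by their totals alone, 9 members were called higher and 3 lower.

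**Figure D1:**
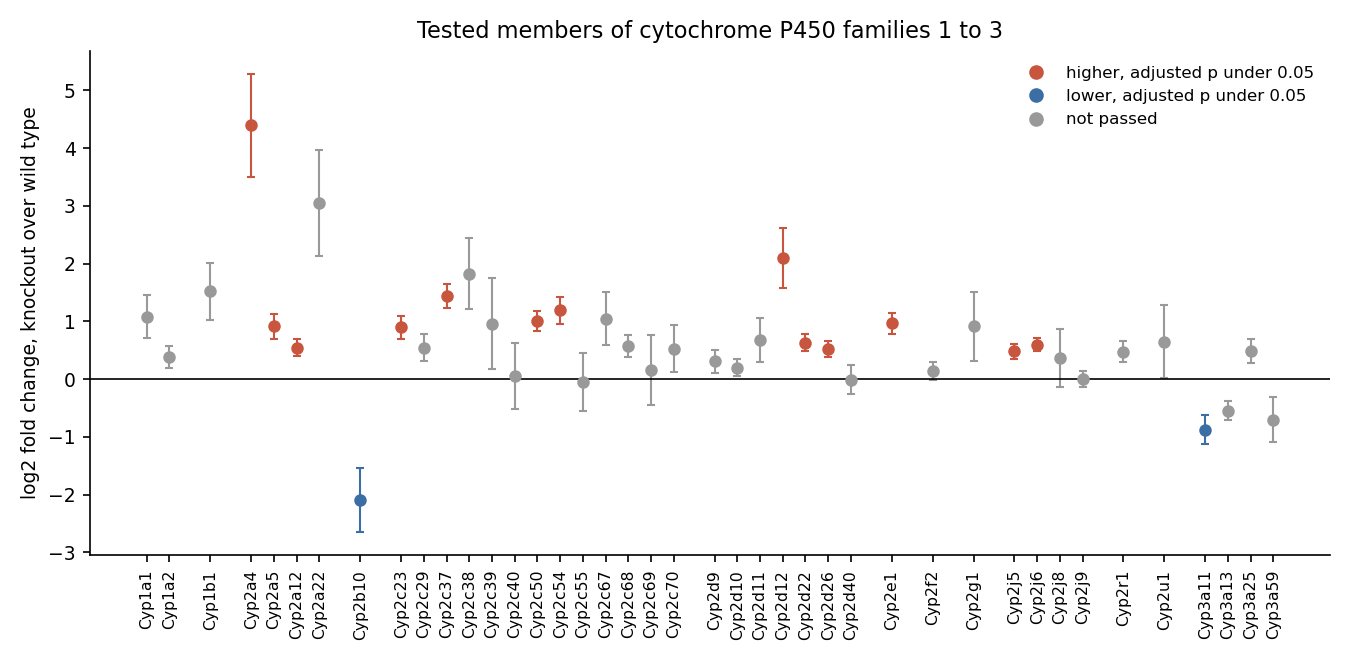
Log2 fold change, knockout over wild type, of the 41 tested members, grouped by subfamily along the x axis. Points are edgeR estimates, bars are 1 standard error, and colours mark the 13 members called higher, the 2 called lower and the rest; 35 of the 41 points lie above 0, and Cyp2b10 and 3 of the 4 Cyp3a genes lie below it.

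The libraries of a group were not alike in these genes. WT 1 was more than 1.5-fold above both other wild-type libraries in 7 of the 41 members (17.1%, against 6.20% of all genes tested) and more than 1.5-fold below both in 5 (12.2%, against 2.29%). WT 3 was more than 1.5-fold above both others in 5 (12.2%, against 4.14%). KO 2 was more than 1.5-fold below both other knockout libraries in 6 members (14.6%, against 4.95%), and KO 3 more than 1.5-fold above both in 6 (14.6%, against 5.74%). The clearest of these are described with their subfamilies, and each call that was lost on leaving out a library is named beside its gene. Without KO 1, all calls except Cyp2c37 were lost: 1 of the 13 higher calls and 0 of the 2 lower calls remained by edgeR. Without KO 1, the 1379 of all genes called higher became 385 and the 1492 of all genes called lower became 218. With a change of at least 1.5-fold required, Cyp2c37 was again the 1 member called. The cause was not tested.

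Family 1 holds the enzymes that oxidise polycyclic aromatic compounds, and none of its 3 genes passed the test by edgeR, although 2 had an unadjusted p under 0.05, as did 36.0% of all genes tested. Cyp1a2, which clears caffeine and aromatic amines (chr9:57676937-57683703, minus strand), was the abundant one. It stood at 483, 383 and 380 CPM in wild type and at 560, 636 and 430 CPM in knockout. The groups overlapped, since KO 3 lay under WT 1 (log2 fold change 0.38 ± 0.18 SE, adjusted p = 0.174 by edgeR). Cyp1a1, the classical inducible target of the aryl hydrocarbon receptor, was near the limit of detection at 0.358, 0.512 and 0.389 CPM in wild type. In knockout it had 1.20, 0.847 and 0.652 CPM, each above every wild-type value, but did not pass (log2 fold change 1.08 ± 0.37 SE, adjusted p = 0.0717 by edgeR). Cyp1b1, an enzyme known mainly from cells other than hepatocytes, had 0.386, 1.08 and 0.750 CPM in wild type and 1.88, 1.15 and 3.34 CPM in knockout. These groups did not overlap either, with KO 2 only just above WT 2 (adjusted p = 0.0633 by edgeR; 0.0480 without WT 2 and 0.0136 by DESeq2).

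The Cyp2a genes lie close together on chromosome 7, and Cyp2a5 and Cyp2a12 rose. Cyp2a4 was called higher too and Cyp2a22 was not called, but both needed their knockout libraries to pass the filter on low counts. Cyp2a5, the coumarin hydroxylase (chr7:26835305-26843548, plus strand), had 171, 180 and 257 CPM in wild type and 395, 292 and 458 CPM in knockout. All 3 knockout libraries were above all wild-type ones, with KO 2 the lowest of them and WT 3 the highest wild type. The log2 fold change was 0.91 ± 0.22 SE (adjusted p = 0.0253 by edgeR). The call was lost without WT 1, WT 2, KO 1 or KO 3, with adjusted p up to 0.0913. Cyp2a12, a steroid hydroxylase (chr7:27029081-27037375, plus strand), had 271, 279 and 343 CPM in wild type and 464, 433 and 404 CPM in knockout. The groups did not overlap (log2 fold change 0.54 ± 0.15 SE, adjusted p = 0.0354 by edgeR), and the call was lost without WT 1, WT 2 or any 1 knockout library, with adjusted p up to 0.158.

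Cyp2a4, a testosterone hydroxylase that is female-biased in mouse liver (chr7:26307169-26315088, plus strand), was at background in wild type, with 1, 3 and 3 counts. In the knockout libraries it had 57, 11 and 115 counts, which is 1.45, 0.274 and 2.42 CPM. KO 1 and KO 3 were high, KO 2 was nearer to wild type, and the groups did not overlap. Summed over libraries, the knockout level was 22.9 times the wild-type one, with an exact 95% interval for counting error of 10.9 to 57.8. This interval does not cover the spread between the knockout libraries. The adjusted p was 0.0158 by edgeR, 0.0541 without WT 1, 0.0566 without KO 1 and 0.0507 by limma voom. Since Cyp2a4 passed the filter only through its knockout libraries, its direction was fixed by the filter and these values are no support for it. Its near copy Cyp2a5 was far more abundant, so that Cyp2a4 counts were 0.0162%, 0.0432% and 0.0327% of Cyp2a5 counts in wild type. In the knockout libraries that share was 0.366%, 0.0950% and 0.530%, higher in each knockout library than in any wild-type one. With both counted as 1 gene, the log2 fold change was 0.92 ± 0.22 SE (adjusted p = 0.025 by edgeR). Cyp2a22, also highest in KO 3 and lowest of the knockouts in KO 2, had 0.193, 0.102 and 0.333 CPM in wild type and 1.32, 0.274 and 3.62 CPM in knockout. KO 2 fell within the wild-type range here, and the gene did not pass the test (log2 fold change 3.05 ± 0.92 SE, adjusted p = 0.0537 by edgeR; 3.56 and adjusted p = 0.0184 without KO 2). Of its wild-type libraries only WT 3 reached the minimum of the filter on low counts. Cyp2a22 was thus tested only with the help of its knockout libraries.

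Cyp2b10, the standard readout of CAR activation (chr7:25897620-25926624, plus strand), fell. It had 61.7, 15.9 and 16.0 CPM in wild type and 8.63, 6.90 and 6.39 CPM in knockout. Every knockout library was below every wild-type one, and WT 1 stood well above the other wild-type libraries. The log2 fold change was -2.10 ± 0.56 SE (adjusted p = 0.0408 by edgeR). Without WT 1 it was -1.14 (adjusted p = 0.0168 by edgeR). The call was lost without KO 1, KO 2 or KO 3, with no filter on low counts and by limma voom, with adjusted p up to 0.162.

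Its neighbours Cyp2b9 and Cyp2b13, both female-biased in mouse liver, had counts mainly in KO 1 and KO 3, did not pass the filter on low counts and were not tested. Cyp2b9 had 7, 0 and 2 counts in wild type and 147, 0 and 251 counts in the knockout libraries. KO 1 and KO 3 were thus far above the rest, while KO 2 had no count, which allows up to 0.0747 CPM at its depth. Cyp2b13 was at 0 in all wild-type libraries and had 4, 0 and 6 counts in knockout, at least 2.92-fold higher over the group when wild type is set at the limit of 3 counts. The other Cyp2b genes, Cyp2b19 and Cyp2b23, were at 0 in every library. The 120 bases before the annotated start are shown for Cyp2b9, whose counts were high in KO 1 and KO 3 only, and for Cyp2b10, which fell (RefSeq starts on GRCm38.p6, both on the plus strand, chr7:26173289-26173408 and chr7:25897538-25897657). Capitals mark GCGTG, the core that the aryl hydrocarbon receptor binds, on either strand.
Cyp2b9: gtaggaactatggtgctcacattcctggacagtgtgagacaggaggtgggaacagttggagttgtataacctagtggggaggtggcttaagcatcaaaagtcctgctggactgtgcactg
Cyp2b10: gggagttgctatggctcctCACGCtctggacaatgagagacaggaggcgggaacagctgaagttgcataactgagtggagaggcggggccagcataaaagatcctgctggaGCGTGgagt

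The Cyp2b13 stretch (chr7:26061375-26061494, plus strand) was the same as that of Cyp2b9 in all 120 bases, with 0 differences. Promoters of 300 bases were matched for 53 members. The GCGTG core was found on either strand in 19.6% of the 56 member promoters and in 32.4% of all 32851 promoters, and it was present in those of Cyp1a1 and Cyp1b1. The palindrome TTCNNNGAA, bound by STAT factors, was found in 3.57% of member promoters and 8.3% of all. Neither match is a measured binding site.

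**Figure D2:**
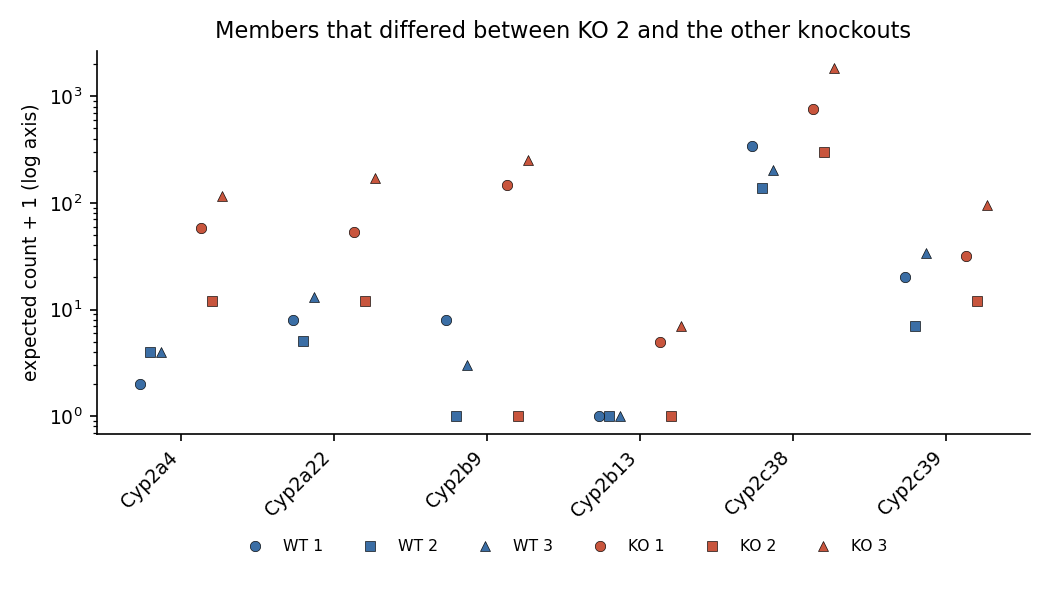
Expected counts plus 1 (log axis) of 6 members in the 6 libraries, wild type in blue and knockout in red. KO 1 and KO 3 lie above KO 2 for all 6 genes, and for Cyp2b9 and Cyp2b13 KO 2 has no count.

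The Cyp2c genes form the largest subfamily, 15 genes on chromosome 19 that metabolise fatty acids, steroids and drugs, and 4 of the 13 tested rose while none fell. Cyp2c37, known to act on arachidonic acid (chr19:39992424-40012243, plus strand), had 79.2, 79.1 and 94.5 CPM in wild type. In knockout it had 236, 162 and 286 CPM, each well above every wild-type library. The log2 fold change was 1.44 ± 0.21 SE (adjusted p = 0.00558 by edgeR), and this was the 1 call among the 15 that held under every alternative that was run. Cyp2c50, an arachidonate epoxygenase (chr19:40089688-40113950, plus strand), had 443, 344 and 285 CPM in wild type and 719, 711 and 724 CPM in knockout. The knockout libraries lay close together and above all wild-type ones (log2 fold change 1.01 ± 0.18 SE, adjusted p = 0.0103 by edgeR; 0.0505 without KO 1). Cyp2c54, its close relative (chr19:40037940-40073827, minus strand), had 142, 83.0 and 74.7 CPM in wild type and 231, 212 and 242 CPM in knockout. WT 1 was the highest wild-type library and still below every knockout one (log2 fold change 1.19 ± 0.24 SE, adjusted p = 0.0151 by edgeR; 0.0582 without KO 1). Between 10.4% and 14.1% of the 75-base stretches of these 3 genes occur in another member, so that part of their reads is split by estimation.

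Cyp2c23, an epoxygenase gene set apart from the rest of the cluster (chr19:44005022-44029208, minus strand), shared no 75-base stretch with another member. It had 137, 108 and 98.5 CPM in wild type and 219, 258 and 164 CPM in knockout, with no overlap. The log2 fold change was 0.90 ± 0.20 SE (adjusted p = 0.0190 by edgeR; 0.0746 without KO 1 and 0.0539 without KO 2).

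Cyp2c29, a phenobarbital-inducible gene, was among the abundant Cyp2c genes and did not pass. It had 1147, 688 and 628 CPM in wild type and 1159, 1168 and 1255 CPM in knockout. WT 1 stood at the knockout level and the other wild-type libraries well below it, so that the log2 fold change went from 0.54 ± 0.23 SE (adjusted p = 0.136 by edgeR) to 0.85 (adjusted p = 0.0207) without WT 1. Cyp2c70, the enzyme that makes muricholic acids in mice, was the highest Cyp2c gene per kilobase of exon. It had 435, 1213 and 587 CPM in wild type and 1179, 1330 and 707 CPM in knockout, and these groups overlapped (adjusted p = 0.394 by edgeR; 0.0432 without WT 2). Cyp2c68 was at 80.1, 138 and 111 CPM in wild type and 172, 155 and 165 CPM in knockout, without overlap (log2 fold change 0.58 ± 0.19 SE, adjusted p = 0.0672 by edgeR; 0.0197 without WT 2).

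Neighbouring Cyp2c genes differed in opposite directions between the wild-type libraries. In WT 1, Cyp2c69 was at 0.163 times the mean of WT 2 and WT 3, Cyp2c40 at 0.176, Cyp2c67 at 0.277, Cyp2c70 at 0.483 and Cyp2c68 at 0.643 times. Over the same libraries Cyp2c55 was at 3.33 times, Cyp2c38 at 2.05, Cyp2c54 at 1.80, Cyp2c29 at 1.74 and Cyp2c50 at 1.41 times. The low group thus held the 4 neighbours Cyp2c67, Cyp2c68, Cyp2c40 and Cyp2c69, which also share the most sequence, and Cyp2c70, which shares no 75-base stretch with any member. Counted as 1 gene, the 4 neighbours had 143, 362 and 367 CPM in wild type and 537, 555 and 443 CPM in knockout. These sums did not overlap, and WT 1 was the lowest (log2 fold change 0.81 ± 0.33 SE, adjusted p = 0.123 by edgeR).

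**Figure D3:**
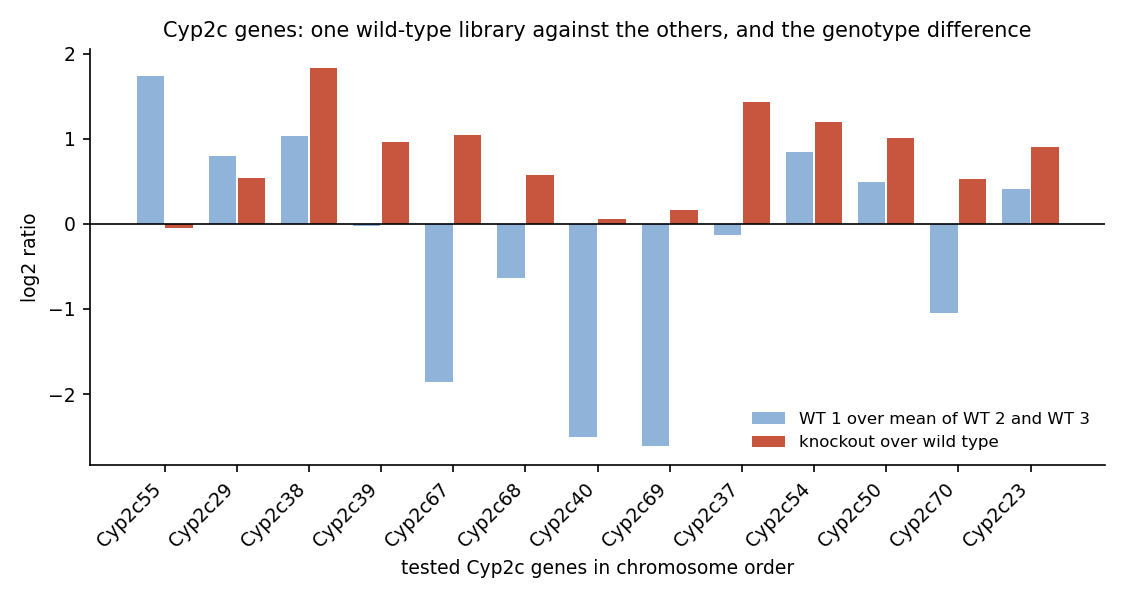
Log2 ratios for the 13 tested Cyp2c genes in chromosome order: WT 1 over the mean of WT 2 and WT 3 (light blue) and knockout over wild type (red, edgeR with TMM scaling). Cyp2c67, Cyp2c68, Cyp2c40, Cyp2c69 and Cyp2c70 have negative blue bars between genes with positive or near-zero ones, while the red bars are at or above 0 for all but Cyp2c55, at -0.05.

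The promoters of the Cyp2c genes named above as low in WT 1 had a shared feature of sequence. Cyp1b1 and Cyp2a4, also low in WT 1, were not among the members with a match. The element CAAAGTCCA, bound by the liver factor HNF4, was found on either strand in the 300-base promoters of Cyp2c40, Cyp2c67, Cyp2c68, Cyp2c69 and Cyp2c70, as well as of Cyp2c65, Cyp3a11, Cyp3a16, Cyp3a41a and Cyp3a41b, 17.9% of the 56 member promoters against 0.475% of all promoters. The first 4 of these genes are near relatives, and so are the Cyp3a genes, so the matches are not independent. The 120 bases before the start are shown for Cyp2c40 (chr19:39812815-39812934) and Cyp2c70 (chr19:40187287-40187406), which were low in WT 1, for Cyp3a11 (chr5:145879855-145879974), which was high in it, and for Cyp2c37 (chr19:39992304-39992423), which was neither. The first 3 are on the minus strand and the last on the plus strand (RefSeq starts, GRCm38.p6), and capitals mark the element.
Cyp2c40: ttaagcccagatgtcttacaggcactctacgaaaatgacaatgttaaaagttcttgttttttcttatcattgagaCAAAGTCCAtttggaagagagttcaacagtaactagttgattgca
Cyp2c70: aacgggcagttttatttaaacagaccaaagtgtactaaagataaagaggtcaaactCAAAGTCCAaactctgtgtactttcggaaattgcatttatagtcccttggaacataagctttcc
Cyp3a11: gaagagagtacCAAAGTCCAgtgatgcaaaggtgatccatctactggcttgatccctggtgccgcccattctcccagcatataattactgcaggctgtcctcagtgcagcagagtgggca
Cyp2c37: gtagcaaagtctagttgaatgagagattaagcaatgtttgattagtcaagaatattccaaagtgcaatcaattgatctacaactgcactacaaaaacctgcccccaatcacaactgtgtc

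A match describes these letters and is not a measured site, and these genes were looked at because of their levels in WT 1. Hnf4a, the gene for HNF4, had 875, 972 and 573 CPM in wild type and 795, 693 and 711 CPM in knockout (adjusted p = 0.670 by edgeR), and its part in these levels was not tested.

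Among the lower Cyp2c genes, Cyp2c38 had 9.37, 3.49 and 5.66 CPM in wild type and 19.5, 7.502 and 38.7 CPM in knockout. KO 2 lay within the wild-type range and KO 1 and KO 3 above it, as for Cyp2a22 (log2 fold change 1.83 ± 0.61 SE, adjusted p = 0.0785 by edgeR). Cyp2c39 had 0.524, 0.154 and 0.916 CPM in wild type and 0.789, 0.274 and 1.998 CPM in knockout, again with KO 2 lowest of its group, and did not pass. Cyp2c69 had 1.13, 7.92 and 5.91 CPM in wild type and 6.08, 3.74 and 6.90 CPM in knockout, so that WT 1 was the lowest of all and KO 2 the lowest knockout library. Cyp2c66 was at 0 in every library and Cyp2c65 had at most 8 counts.

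In the Cyp2d subfamily, whose human relative oxidises many heart and psychiatric drugs, 2 of the 6 tested genes whose filter did not depend on the knockout libraries rose and none fell, and Cyp2d12, which passed the filter only through them, was called higher. Cyp2d22 (chr15:82370527-82380260, minus strand) had 118, 97.4 and 91.1 CPM in wild type and 165, 175 and 136 CPM in knockout. The groups did not overlap (log2 fold change 0.63 ± 0.15 SE, adjusted p = 0.0246 by edgeR), and the call was lost without WT 3, KO 1 or KO 2, with adjusted p up to 0.105. Cyp2d26 (chr15:82790101-82794294, minus strand) had 370, 378 and 469 CPM in wild type and 615, 565 and 566 CPM in knockout. These also did not overlap (log2 fold change 0.52 ± 0.15 SE, adjusted p = 0.0402 by edgeR), and the call was lost without WT 1, WT 2 or any 1 knockout library, with adjusted p up to 0.172, and under upper-quartile or total scaling. Cyp2d12 (chr15:82555072-82560403, plus strand) was barely detected, at 0.0827, 0.102 and 0.139 CPM in wild type and 0.738, 0.374 and 0.315 CPM in knockout. Summed counts were 12 in wild type and 59 in knockout, a ratio of 4.31 with an exact 95% interval for counting error of 2.29 to 8.81 (adjusted p = 0.0275 by edgeR). This call, whose direction was fixed by the filter, was lost without any 1 library except KO 3, with adjusted p up to 0.122.

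The Cyp2d genes most abundant per kilobase of exon did not pass. Cyp2d9, a male-biased testosterone hydroxylase, had 721, 750 and 706 CPM in wild type and 920, 1120 and 658 CPM in knockout. KO 3 was the lowest of all 6 libraries and KO 2 the highest (log2 fold change 0.31 ± 0.20 SE, adjusted p = 0.304 by edgeR). Cyp2d10 had 497, 485 and 511 CPM in wild type and 582, 642 and 489 CPM in knockout, with KO 3 inside the wild-type range (adjusted p = 0.370 by edgeR). Cyp2d10 and Cyp2d11 shared 20.997% and 21.9% of their 75-base stretches with other members.

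Cyp2e1, which oxidises ethanol, acetone and paracetamol in the hepatocytes around the central vein (chr7:140763739-140774987, plus strand), was the most abundant member per kilobase of its exon union in both groups. It rose from 1580, 1850 and 2265 CPM in wild type to 3636, 3687 and 3788 CPM in knockout. The knockout libraries lay within a narrow band above all wild-type ones, among which WT 3 was highest. The log2 fold change was 0.96 ± 0.17 SE (adjusted p = 0.0107 by edgeR; 0.0571 without KO 1). Cyp2e1 shared no 75-base stretch with another member.

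In the Cyp2j subfamily, arachidonate epoxygenases on chromosome 4, 2 of 4 tested genes rose. Cyp2j6 (chr4:96516138-96553661, minus strand) had 51.7, 51.5 and 47.1 CPM in wild type and 80.5, 79.1 and 68.1 CPM in knockout. The groups were well apart (log2 fold change 0.60 ± 0.11 SE, adjusted p = 0.0125 by edgeR; 0.0746 without KO 1). Cyp2j5, the main Cyp2j gene of liver and kidney (chr4:96628773-96664154, minus strand), had 356, 297 and 310 CPM in wild type and 454, 440 and 452 CPM in knockout. It did not overlap between groups either (log2 fold change 0.48 ± 0.13 SE, adjusted p = 0.0365 by edgeR), but the call was lost without any 1 library except WT 1, with adjusted p up to 0.155, and under upper-quartile or total scaling. Cyp2j9, at 9.59, 11.3 and 9.83 CPM in wild type and 10.3, 9.27 and 11.3 CPM in knockout, had a log2 fold change of 0.00 ± 0.14 SE. No Cyp2j gene shared a 75-base stretch with another.

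The subfamilies with a single gene in the mouse gave no further call. Cyp2f2, which activates naphthalene, had 716, 688 and 739 CPM in wild type and 865, 862 and 643 CPM in knockout, where KO 3 was the lowest of all libraries (adjusted p = 0.551 by edgeR). Cyp2r1, a vitamin D hydroxylase, had 8.82, 6.30 and 7.69 CPM in wild type and 10.1, 12.3 and 9.36 CPM in knockout, without overlap (adjusted p = 0.0950 by edgeR). Cyp2u1, a fatty acid hydroxylase, had 6.75, 3.15 and 21.2 CPM in wild type and 15.01, 12.6 and 21.2 CPM in knockout. WT 3 was at the level of KO 3, and without WT 3 the log2 fold change was 1.72 (adjusted p = 0.0277 by edgeR), against 0.65 ± 0.63 SE (adjusted p = 0.499) with it. Cyp2g1, known from the nasal mucosa, stayed under 1 CPM in every library and was highest in WT 3 and KO 3 of their groups (0.639 and 0.904 CPM).

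Of the 4 tested Cyp3a genes on chromosome 5, 1 fell and none rose. Cyp3a11, the main drug-metabolising and PXR-responsive P450 of mouse liver (chr5:145854426-145879964, minus strand), was the one that fell, from 5027, 2687 and 2885 CPM to 1991, 2021 and 1762 CPM. Every knockout library was below every wild-type one, and WT 1 was far above the other wild-type libraries. The log2 fold change was -0.88 ± 0.25 SE (adjusted p = 0.0430 by edgeR). Without WT 1 it was -0.54 (adjusted p = 0.0640), and the call was also lost without KO 1, KO 2 or KO 3, with adjusted p up to 0.134.

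Cyp3a13 had 293, 195 and 264 CPM in wild type and 181, 175 and 159 CPM in knockout. The groups did not overlap and the gene lay just outside the threshold (log2 fold change -0.55 ± 0.17 SE, adjusted p = 0.0534 by edgeR; 0.0224 by DESeq2, 0.0434 with upper-quartile scaling, 0.0411 with total scaling and 0.0138 without WT 2). Cyp3a59 had 35.3, 12.6 and 13.8 CPM in wild type, with WT 1 high as for Cyp3a11, and 11.3, 14.5 and 12.2 CPM in knockout. Cyp3a25 ran against its neighbours, with 334, 190 and 231 CPM in wild type and 343, 398 and 320 CPM in knockout. KO 3 was under WT 1, and the gene did not pass (log2 fold change 0.49 ± 0.21 SE, adjusted p = 0.140 by edgeR). Cyp3a25 and Cyp3a59 shared 12.3% and 13.2% of their 75-base stretches. The female-biased Cyp3a genes were not tested: Cyp3a44 had 24, 6 and 4 counts in wild type and 7, 10 and 23 counts in knockout, and Cyp3a41a had 1, 1 and 3 counts in wild type and 4, 0 and 6 counts in knockout.

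**Figure D4:**
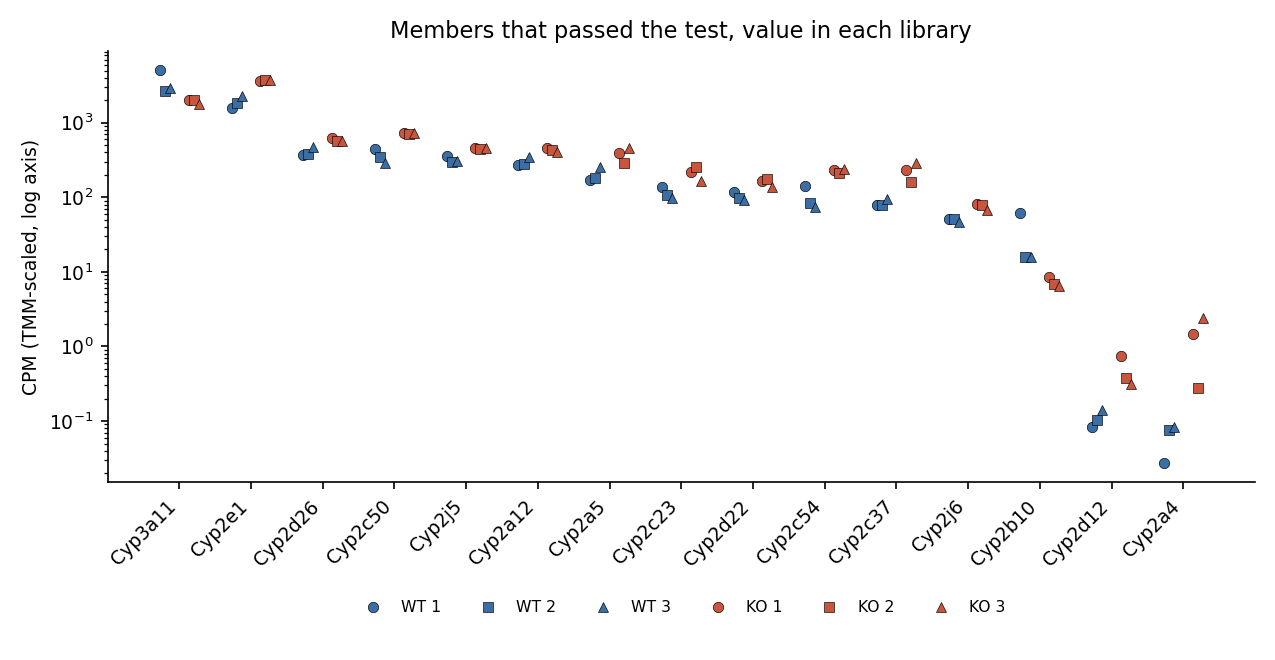
CPM (log axis) of the 15 members that passed the test in each of the 6 libraries, wild type in blue and knockout in red, ordered by wild-type level. Cyp3a11 and Cyp2b10 lie lower in knockout, with WT 1 above the other wild-type libraries, and the other 13 lie higher.

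Summed over members, the subfamilies fell into those that were higher and those that were lower, and these sums, which have no test, follow their most abundant genes. The Cyp2c sum was 2551, 2887 and 2144 CPM in wild type and 4309, 4410 and 3871 CPM in knockout, 1.66 times as high. The ratio was 1.95 for Cyp2e, 1.63 for Cyp2a, 1.40 for Cyp2j, 1.39 for Cyp2r, 1.27 for Cyp2d and 2.88 for Cyp1b, the last at a wild-type mean of 0.737 CPM. In these 7 subfamilies the knockout libraries were all above the wild-type ones, except that Cyp2d overlapped under upper-quartile or total scaling. The Cyp3a sum was 5689, 3085 and 3394 CPM in wild type and 2526, 2609 and 2254 CPM in knockout, 0.607 times as high, and the Cyp2b sum was 0.332 times as high. In these 2 subfamilies the knockout libraries were all below the wild-type ones. Both sums were highest in WT 1, and without it the ratio was 0.760 for Cyp3a and 0.649 for Cyp2b. Cyp1a, Cyp2f and Cyp2u overlapped.

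**Figure D5:**
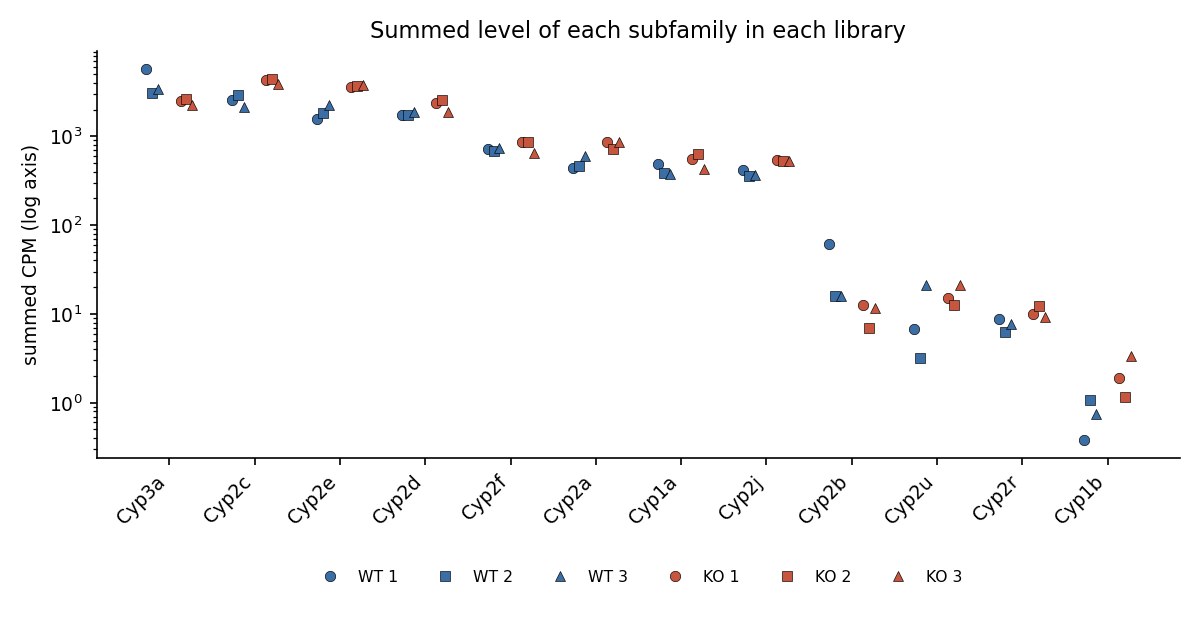
Summed CPM (log axis) of each subfamily with a mean of at least 1 CPM in either group, in each of the 6 libraries, wild type in blue and knockout in red. Cyp3a and Cyp2b lie lower in knockout and 7 of the others lie higher without overlap (Cyp2d not under upper-quartile or total scaling).

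The makeup of the P450 pool shifted with these sums. Family 3 made up 32.9% of the members' counts in wild type and 16.0% in knockout, and family 2 went from 63.7% to 80.4%. WT 1 raised the wild-type share of family 3, which was 5689 of 13700 CPM there, 3085 of 11500 in WT 2 and 3394 of 11790 in WT 3. In knockout it was 2526 of 15690, 2609 of 16060 and 2254 of 14330 CPM. Cyp2e1 alone went from 15.4% to 24.1%. Per kilobase of exon, Cyp2e1 was at 0.742, 1.63 and 1.85 times Cyp3a11 in the wild-type libraries and at 4.31, 4.31 and 5.07 times in the knockout ones. With the longest transcript as the length, these ratios were 0.481, 1.05 and 1.20 against 2.79, 2.79 and 3.29, so which gene was ahead in wild type depended on the length used, while the order of the groups did not. All members together summed to 12330 ± 1197 CPM (SD, n = 3) in wild type and 15360 ± 910 CPM (SD, n = 3) in knockout.

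Regulators and partners of these enzymes were counted from lists drawn up for this work, with earlier results of these data known. The counts are set beside the 9.8% of all genes called higher and the 10.6% called lower. Since the lists were not chosen blind, their shares are no independent support. Of 29 tested regulators, 5 were higher (17.2%) and 3 lower (10.3%) in knockout. Ahr, the aryl hydrocarbon receptor, rose from 50.7, 53.9 and 59.0 CPM to 133, 122 and 113 CPM, with no overlap (log2 fold change 1.17 ± 0.12 SE, adjusted p = 0.00209 by edgeR), and it passed without any 1 library. Rxra, the partner of CAR and PXR, fell by 0.61 on the log2 scale, from 452, 438 and 488 CPM to 322, 318 and 261 CPM (adjusted p = 0.0215 by edgeR), a call lost without WT 3, KO 1, KO 2 or KO 3, with adjusted p up to 0.0905. Nr1i2, the gene for PXR, had a log2 fold change of 0.00 ± 0.14 SE (adjusted p = 0.999 by edgeR). Nr1i3, the gene for CAR, varied too much within wild type to be compared closely, at 37.6, 14.1 and 130 CPM against 46.4, 40.9 and 59.5 CPM in knockout (adjusted p = 0.792 by edgeR). WT 1, where Cyp2b10 and Cyp3a11 were highest, was in the middle of the wild-type libraries for Nr1i3. For Nr1i2 the wild-type libraries were close, at 35.5, 38.2 and 41.8 CPM. The part of either receptor in the levels of WT 1 was not tested.

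Of 17 other targets of CAR and PXR (transferases, transporters, carboxylesterases and aldehyde dehydrogenases), 9 were higher (52.9%) and 0 lower by edgeR, 13 having an unadjusted p under 0.05 in either direction (36.0% of all genes did); their median log2 fold change was 0.64. Gstm2 rose by 1.15 ± 0.21 SE and Gstt1 by 0.88 ± 0.13 SE on the log2 scale (adjusted p = 0.0108 and 0.00575 by edgeR). Of 8 electron partners, 4 were higher and 0 lower by edgeR, 6 having an unadjusted p under 0.05 in either direction. Cyb5a, the gene for microsomal cytochrome b5, had 414, 369 and 415 CPM in wild type and 709, 784 and 654 CPM in knockout (log2 fold change 0.84 ± 0.14 SE, adjusted p = 0.00828 by edgeR; 0.0505 without KO 1). Por, the gene for P450 oxidoreductase, was at 302, 357 and 321 CPM in wild type and 290, 241 and 273 CPM in knockout, below every wild-type library but not past the threshold (adjusted p = 0.171 by edgeR).

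Of 13 genes of heme synthesis and breakdown, 4 were higher (30.8%) and 1 lower (7.69%). Hmox1, which breaks heme down, rose from 77.4, 172 and 94.5 CPM to 686, 675 and 451 CPM (log2 fold change 2.40 ± 0.33 SE, adjusted p = 0.00531 by edgeR). Alas1, the first enzyme of heme synthesis, fell from 244, 296 and 183 CPM to 164, 157 and 152 CPM (adjusted p = 0.0453 by edgeR), a call lost without any 1 library except WT 3, with adjusted p up to 0.143. The synthesis enzymes Alad and Fech rose by 0.55 ± 0.11 SE and 0.49 ± 0.11 SE on the log2 scale (adjusted p = 0.0147 and 0.0209 by edgeR). Without KO 1 neither passed (adjusted p = 0.0643 and 0.106), and Fech did not pass without WT 1, without KO 2 or with total scaling either. Erythrocyte markers, which were higher in every knockout library as given above, moved with these genes, and their part was not tested.

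Zonation and inflammation lists were counted the same way, since both are known to go with P450 levels in liver. The part of either in the P450 levels here was not tested. Of 12 genes of the zone around the central vein, 5 were higher (41.7%) and 1 lower (8.33%), and of 9 periportal genes 0 were higher and 1 lower (11.1%) by edgeR (5 with an unadjusted p under 0.05 in either direction). Of 14 acute-phase genes 0 were higher and 11 lower (78.6%) by edgeR, 12 having an unadjusted p under 0.05 in either direction. Of all genes tested, 36.0% had such an unadjusted p by edgeR. Among 26 tested genes of the other P450 families, 3 were higher (11.5%) and 1 lower (3.85%), shares near or under those of all genes, with a median log2 fold change of 0.36. Cyp26a1, the retinoic acid hydroxylase, rose by 1.68 ± 0.19 SE and Cyp4f14 by 0.90 ± 0.13 SE on the log2 scale (adjusted p = 0.00266 and 0.00597 by edgeR). The female-biased list, which consists of members, had 9 genes of which 3 were tested and 1, Cyp2a4, was higher, a direction fixed by the filter as said above.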

How the data were processed

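The authors' deposited table holds expected counts per gene for 6 mouse liver libraries, estimated by Salmon, with Trim Galore, STAR and the GRCm38 build also named, per the submitters' processing notes; those notes give no versions or settings. Of all values of a library, zeros included, 8.38% to 9.32% were not whole within 5e-04. The expected counts were rounded, filtered with filterByExpr and TMM-scaled. Then 14069 genes were tested with edgeR 4.0.16 (quasi-likelihood, robust, genotype only, Benjamini-Hochberg over all genes, threshold 0.05) in R 4.3.3. DESeq2 1.42.0 and limma 3.58.1 were alternatives, and the test was checked on simulated data. Gene models and coding sequences came from the GRCm38 annotation and promoters (250 bases before to 50 after the start) from RefSeq. Levels per kilobase use the union of exons. Shared sequence was counted in 75-base words. With 3 libraries against 3, the smallest exact p for a single value is 0.1, so single values were not tested alone. Intervals and the limit of 3 counts cover counting error only.

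Groups came from the genotype labels. Within-group pairs of libraries differed by 34.0 to 139 times counting noise, so none was counted as a repeat. The members and lists were chosen with earlier results of these data known. Genes named were all members past the threshold, the highest member per kilobase in each tested subfamily, a list of 16 familiar members, the 4 members nearest the threshold outside it, and listed genes past it; Cyp2c38, Cyp2c39, Cyp2j9, Cyp3a25, Cyp3a59 and the other members given with values were chosen after their values were seen.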

Additional observations from a re-analysis of the deposited data

How the results depend on the processing

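None of the 15 called members changed direction under the alternatives that were run. Of the other tested members 5 did, Cyp2c40, Cyp2c55, Cyp2c69, Cyp2d40 and Cyp2j9; without WT 1, Cyp2c40 went from 0.06 to -0.41, Cyp2c69 from 0.16 to -0.32 and Cyp2c55 from -0.05 to 0.77 (log2 fold change). For the 15 called members, 211 comparisons with an alternative kept the call and 70 lost it. For the other named members 238 stayed outside the threshold and 24 passed it. One alternative was the same fit read at a threshold of 0.1. It keeps all 15 calls by definition and can only add to those that passed. The 13 higher and 2 lower members became 18 and 3 with DESeq2, 12 and 1 with limma voom, 1 and 0 when a change of at least 1.5-fold was required, and between 1 and 11 and between 0 and 3 on leaving out a library. With library totals alone they were 9 and 3. With a replicate block they were 10 and 1, but same-numbered libraries did not deviate together (correlations -0.10, -0.04 and -0.11), so the numbers do not pair the samples. The 1379 of all genes called higher and the 1492 of all genes called lower became 230 and 93 with the 1.5-fold minimum, 807 and 661 with the replicate block, and between 385 and 1390 and between 218 and 1690 on leaving out a library; at a threshold of 0.1, 2249 were lower. The cause was not tested. The 7 higher and 2 lower subfamily sums became 6 and 2 under upper-quartile or total scaling, where Cyp2d overlapped. Depth limits the members under about 0.248 CPM (10 counts at the median library), the minimum of the filter on low counts. Members that reached this minimum in too few libraries were not tested, among them Cyp2b9, with 147, 0 and 251 counts in knockout.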
